A study of Mus musculus with 6 samples.

Results

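The mitochondrial solute carriers are a family of inner-membrane transporters encoded by genes whose symbols begin with Slc25a. The set described here took every probe of the deposited table whose gene symbol starts with Slc25a, leaving out Slc25a1 and Slc25a20, and held 34 of the 17086 named genes on 42 probes. All 42 probes were measured on all 6 arrays, so no member was lost to a filter on missing or low values. The tissue was epididymal white fat (eWAT), a visceral pad attached to the epididymis and testis. One group was 3 db/db mice, homozygous for a mutation that removes the signalling form of the leptin receptor from every cell, which the labels describe as obese, severely hyperglycemic and modestly hyperinsulinemic. The other was 3 db/+ mice, the lean heterozygous controls. Both groups were 10 weeks old and, per the file headers, vehicle-treated. The vehicle, the sex and the feeding state of the mice are not given in the labels or headers. Each two-colour array held RNA of 1 mouse in Cy5 and 1 pool of lean vehicle-treated eWAT in Cy3, and the comparison asked which genes differ between db/db and db/+ eWAT.

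Carrier proteins of this family let metabolites, nucleotides, cofactors and ions cross a membrane that is otherwise closed to them. Most exchange a substrate on the outside for one in the matrix: ADP for ATP, malate for phosphate, aspartate for glutamate. In white adipocytes they connect the citrate cycle and the respiratory chain with fatty acid and glycerol synthesis in the cytosol, and the family also includes the uncoupling proteins, which have Ucp symbols.

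Pads differed in more than genotype. Of 12 measured epididymis markers, 1 (Cst8) passed the test, with no value on db/db replicate 1 or db/+ replicate 3, where the markers' medians were lowest. Their median log2 ratio to the pool was -1.68, 3.87 and 4.22 in db/db replicates 1, 2 and 3, against 0.67, 0.046 and -1.81 in db/+ replicates 1, 2 and 3. These markers were thus high in 2 of the 3 db/db pads, and their summed Cy5 intensity ran between 1.59 and 159 in db/db and between 1.56 and 11.9 in db/+ pads. Of 9 adipocyte markers 4 were lower in db/db pads and 1 (Lep) was higher, with summed intensities of 36.3 to 46.2 in db/db and 69.6 to 98.8 in db/+ pads. Of 10 macrophage markers 5 were higher in db/db pads, with sums of 77.4 to 129 in db/db and 44.9 to 60.7 in db/+ pads. Of 5 brown adipocyte markers Cidea and Cox8b were lower in db/db pads and Ucp1 was higher, with sums of 0.88 to 1.32 in db/db and 2.66 to 3.14 in db/+ pads. Among all genes tested 3.81% passed as lower in db/db pads and 2.95% as higher. None of the 5 skeletal muscle, 3 erythroid or 4 male germ cell markers passed. Their sums were 1.39 to 4.06, 0.62 to 1.03 and 0.26 to 6.75 in db/db pads, against 4.89 to 8.02, 1.01 to 1.40 and 0.41 to 1.14 in db/+ pads. Pnpla2, Tnnt3, Mylpf and Akap4 were among the markers at an intensity of at most 0.05 in both genotypes. Fewer cells of a type and less RNA per cell cannot be told apart in such pads, and apart from a fit with the epididymis markers, given further down, the part of these cells in the carriers' values was not tested.

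In db/db eWAT 4 carriers fell, another was called lower on 1 of its 3 probes only, and none was called higher on the probe that stands for its gene. The members past an adjusted p of 0.05 were Slc25a4, Slc25a16, Slc25a23 and Slc25a35, plus Slc25a36, whose other probes went the opposite way, each tested with limma on log2 ratios and adjusted by Benjamini-Hochberg over 17024 genes. They are an ADP/ATP carrier, a carrier linked to coenzyme A, an ATP-Mg/phosphate carrier, a carrier of unsettled substrate and a pyrimidine nucleotide carrier. That is 14.7% of the 34 members lower and 0 members higher, where 3.81% of all genes tested were lower, 2.95% were higher and 6.76% passed in either direction. None of these 5 calls held where arrays were scaled to equal spread or ratios were quantile normalized, settings that left 2 and 0 calls among all genes. Both settings give db/db and db/+ arrays a common spread. Unscaled, the SD of log2 ratios over all probes was 0.53 to 0.68 on db/db arrays and 0.23 to 0.28 on db/+ arrays. Where the wider spread of the db/db arrays comes from, and what these settings remove, was not tested. At an unadjusted p under 0.05, 10 members (29.4%) were lower and 7 (20.6%) higher, where 13.3% and 9.95% of all genes tested were. Intensities of Slc25a2, Slc25a15, Slc25a31, Slc25a41 and Slc25a43 averaged at most 0.05 in both genotypes on the authors' arbitrary scale, and none of these 5 passed. Among the 29 brighter members 17.2% were lower, where 4.9% of the 12595 genes above the same limit were. All 3 db/db ratios lay below all 3 db/+ ratios for 12 members and above them for 7, so 35.3% and 20.6% of the members did not overlap, where 14.7% and 11.4% of the 16858 genes measured on all arrays did so in those directions.

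The size of these differences was small for most members. Over the 34 members 21 log2 fold changes (db/db over db/+) were below 0, 12 above and 1 at 0, with a median of -0.19 beside 0 over all genes tested. That median stayed below 0 under every scaling tried, at -0.069 where arrays were scaled to equal spread and -0.068 where ratios were quantile normalized, but was 0 with db/db replicate 1 alone against the 3 db/+ arrays, a group of 1 array. Within arrays the members' median log2 ratio was 0, -0.18 and -0.26 in db/db replicates 1, 2 and 3, against 0.018, -0.052 and 0 in db/+ replicates 1, 2 and 3. The db/db pad whose carriers had the median of 0 is the one with low epididymis markers, and its adipocyte markers had a median ratio of -0.49 beside -0.82 and -1.22 in the other db/db pads. Its macrophage markers had a median ratio of 1.57 beside 0.83 and 0.95 there. In db/+ replicate 3, where epididymis markers were low too, the carriers' median was also 0. Whether any of these go together was not tested.

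**Figure D1:**
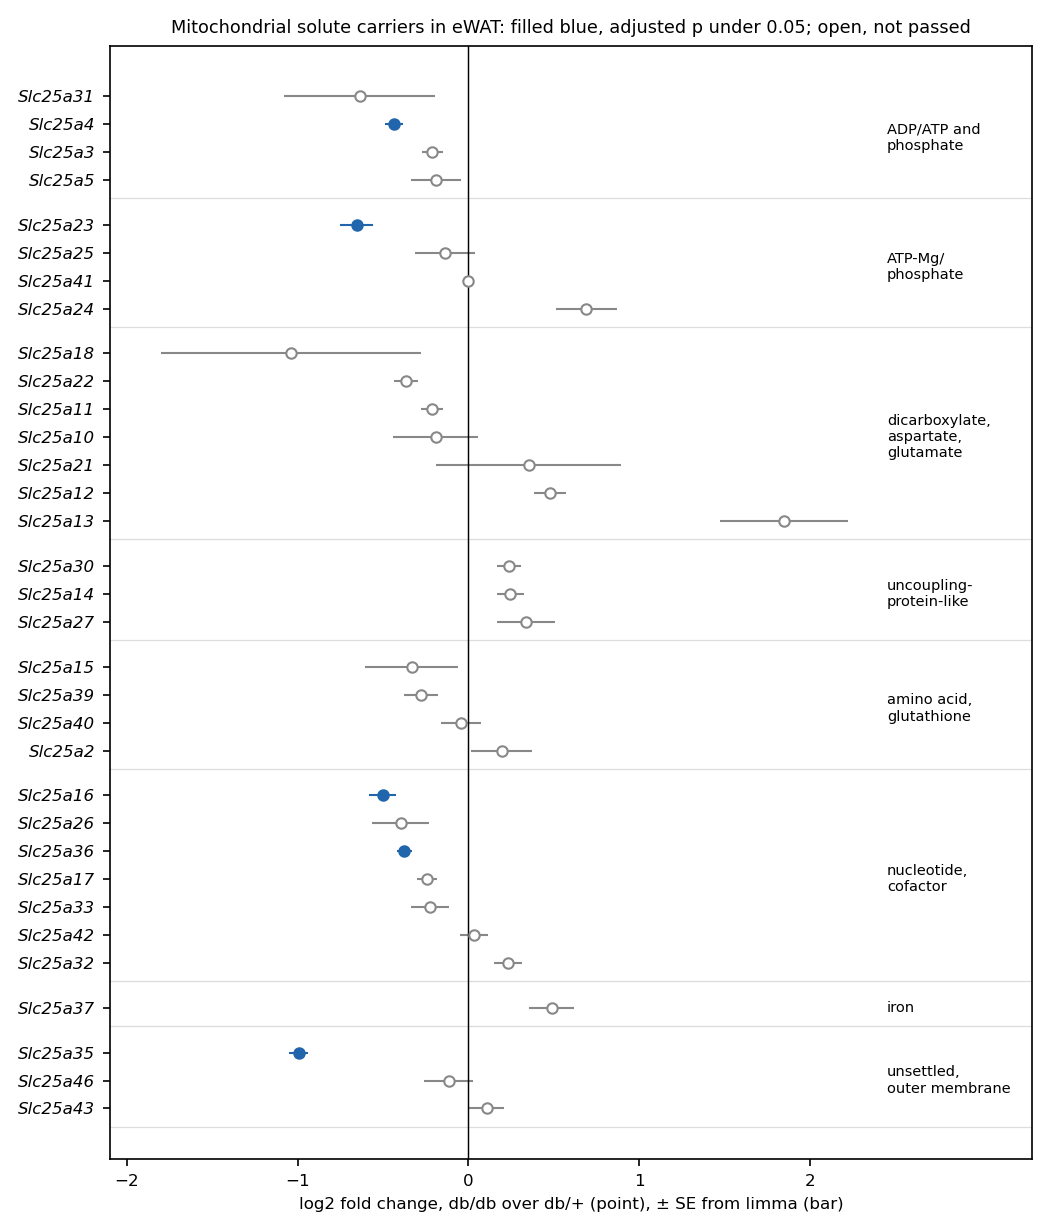
Log2 fold change of 33 of the 34 carriers, db/db over db/+ (x axis), grouped by role (labels at right), with the limma standard error as a bar; filled blue points passed an adjusted p of 0.05 and open points did not. The 5 filled points all lie left of 0, and the point farthest right, Slc25a13 at 1.85, is open.

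Slc25a4 and the other carriers that feed ATP synthase came first by role. Slc25a4 encodes ANT1, which exchanges matrix ATP for cytosolic ADP and is the predominant isoform of heart and muscle. Its log2 ratio to the lean pool was -0.45, -0.35 and -0.43 in db/db replicates 1, 2 and 3, against -0.0034, -0.026 and 0.10 in db/+ replicates 1, 2 and 3. The db/db pads agreed closely with each other and did not overlap the db/+ pads. Slc25a4 thus fell 1.35-fold (log2 fold change -0.44, SE 0.05, 3 mice each; limma adjusted p = 0.0233), and its Cy5 intensity averaged 15.3 ± 0.695 in db/db and 19.6 ± 2.67 in db/+ pads (SD). Slc25a5, the ANT2 isoform found in most tissues, had ratios of 0.020, -0.37 and -0.31 in db/db pads, against 0.16, -0.19 and -0.064 in db/+ pads. These groups overlapped, and its log2 fold change of -0.19 ± 0.15 did not pass (adjusted p = 0.511); with db/db replicate 1 alone its sign turned (0.051). Slc25a3, the carrier that brings phosphate into the matrix, stood at -0.19, -0.16 and -0.23 in db/db pads, against 0.12, -0.081 and 0.024 in db/+ pads. The groups did not overlap, yet the log2 fold change of -0.21 ± 0.06 missed the threshold (adjusted p = 0.12), and another Slc25a3 probe gave -0.36, again without overlap. Slc25a31, the testis isoform ANT4, was at most 0.02 on every array in the mouse channel.

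The ATP-Mg/phosphate carriers adjust the matrix pool of adenine nucleotides, and most of them are switched on by calcium. Slc25a23 fell: its ratios were -0.53, -0.64 and -0.81 in db/db pads, against -0.12, 0.10 and 0 in db/+ pads. No db/db pad reached the lowest db/+ pad, and the log2 fold change was -0.65 ± 0.10 (adjusted p = 0.0326). Cy5 averaged only 0.0867 in db/db and 0.14 in db/+ pads, in deposited steps of 0.01, so that the log2 fold change could lie anywhere between -0.89 and -0.41 within the rounding alone. Its calcium-regulated paralogue Slc25a24 had values on the other side of 0: 1.01, 0.53 and 0.53 in db/db pads, against -0.20, 0.18 and 0.027 in db/+ pads. All db/db ratios exceeded all db/+ ratios, but the log2 fold change of 0.69 ± 0.18 did not pass (adjusted p = 0.0967). Slc25a25 overlapped at -0.14, and Slc25a41, the calcium-independent member, was too dim for any difference to show.

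Slc25a35 had the largest decrease among the called members and the smallest adjusted p of the family. Its relatives are carriers of oxaloacetate and sulphate in yeast, while its own substrate in mammals is unsettled. The ratios were -0.87, -1.0 and -1.0 in db/db pads, against 0, 0.11 and 0 in db/+ pads. The groups lay far apart, and the log2 fold change was -0.99 ± 0.06 (adjusted p = 0.0065), a 1.99-fold decrease. Its Cy5 intensity, however, was 0.06 on each of the 3 db/db arrays and between 0.12 and 0.14 on the db/+ arrays, and within the rounding of these values the log2 fold change could lie between -1.30 and -0.70. The standard error therefore describes rounded values. Slc25a46, an outer-membrane member of the family that acts in mitochondrial fusion and fission, had a log2 fold change of -0.12 with overlapping groups, and the orphan carrier Slc25a43 was dim.

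Of the 8 nucleotide and cofactor carriers Slc25a16 fell, Slc25a36 was called lower on 1 probe, and on the probes that stand for the genes 5 in all had every db/db ratio below every db/+ ratio. These 5, Slc25a36 among them, are 62.5% of the 8, where 14.7% of the 16858 genes measured on all arrays did so. Another carrier (12.5%) had every db/db ratio above every db/+ ratio, beside 11.4% of those genes. All 8 were brighter than 0.05, and among the 12595 genes above that limit the shares were 18.9% below and 14.7% above. The role groups were chosen with earlier results of these data known. Slc25a16, tied to coenzyme A import through its yeast relative, had ratios of -0.50, -0.29 and -0.53 in db/db pads, against 0.011, 0.043 and 0.13 in db/+ pads. The gap between the groups was wider than either group, and the log2 fold change was -0.50 ± 0.08 (adjusted p = 0.0362), from Cy5 intensities of 0.917 ± 0.0231 in db/db and 1.32 ± 0.0503 in db/+ pads (SD). Another, dim Slc25a16 probe gave -0.14 with overlap, and the mean of both probes gave -0.32, which did not pass (adjusted p = 0.16). Slc25a36, a pyrimidine nucleotide carrier, had ratios of -0.34, -0.44 and -0.42 in db/db pads, against -0.07, 0 and 0 in db/+ pads on the probe that stands for the gene. That probe gave a log2 fold change of -0.38 ± 0.04 (adjusted p = 0.022). The other Slc25a36 probes went against it: one read 0.48, 0.58 and 0.35 in db/db pads and 0 in every db/+ pad, and the other -0.12, 0.30 and 0.51 in db/db pads and 0 in every db/+ pad. With every probe tested on its own, the first of these passed as higher, at a log2 fold change of 0.47 ± 0.07 (adjusted p = 0.0339), and the mean of all 3 probes gave 0.11. Cy5 averaged 0.147 in db/db and 0.203 in db/+ pads on the probe called lower, and 0.143 and 0.11 on the probe called higher. Within rounding, their log2 fold changes could lie between -0.53 and -0.22 and between 0.22 and 0.73, respectively. The direction of Slc25a36 is therefore not settled by these arrays.

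The remaining cofactor carriers did not pass. Slc25a17 (peroxisomal carrier of coenzyme A, FAD and NAD), Slc25a26 (S-adenosylmethionine) and Slc25a33 (pyrimidine nucleotides) had log2 fold changes of -0.24, -0.40 and -0.23, each without overlap of the groups, though another Slc25a17 probe gave -0.064 with overlap. Slc25a32 (folate and FAD) gave 0.23 with every db/db ratio above every db/+ ratio, and Slc25a42 (coenzyme A) gave 0.032 with overlapping groups.

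**Figure D2:**
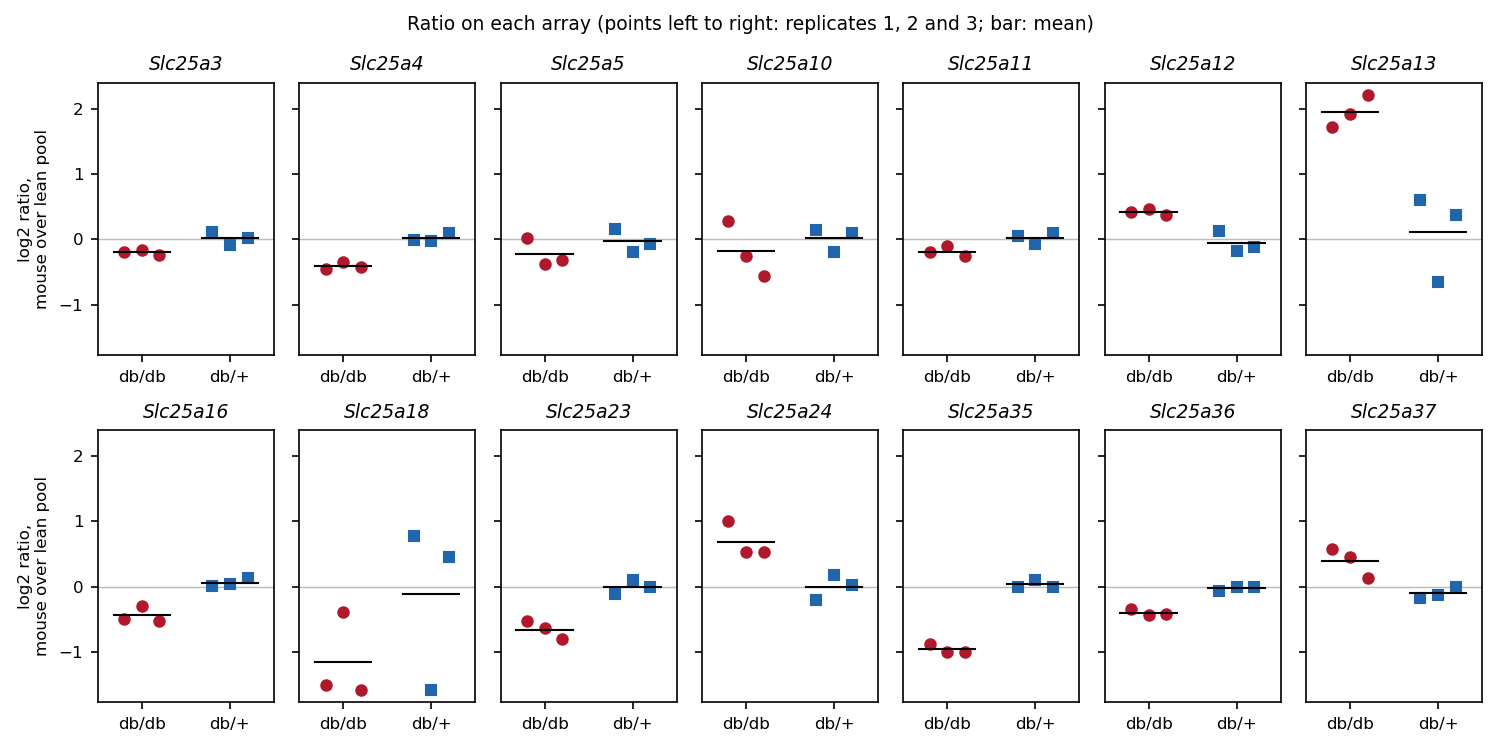
Log2 ratio of the mouse over the lean pool (y axis) on every array for 14 carriers, db/db (red circles) left of db/+ (blue squares), with replicates 1, 2 and 3 from left to right and the mean as a bar. Slc25a4, Slc25a16, Slc25a23, Slc25a35 and Slc25a36 show db/db points below all db/+ points, Slc25a12, Slc25a13, Slc25a24 and Slc25a37 show them above, and in Slc25a18 db/+ replicate 2 lies as low as the db/db points.

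The mitochondrial aspartate/glutamate carriers included the most positive log2 fold change of the family, that of Slc25a13. Both export aspartate in exchange for glutamate and a proton, a step of the malate-aspartate shuttle that carries reducing equivalents into the matrix. Slc25a13, or citrin, the isoform known from liver, had ratios of 1.73, 1.93 and 2.21 in db/db pads, against 0.61, -0.65 and 0.37 in db/+ pads. The lowest db/db pad stood above the highest db/+ pad, and the Cy5 intensity averaged 0.93 ± 0.191 in db/db and 0.227 ± 0.0902 in db/+ pads (SD). The log2 fold change of 1.85 ± 0.38, a 3.6-fold difference, missed the threshold (adjusted p = 0.0593), and db/+ replicate 2 lay apart from the other db/+ pads. Slc25a12, or aralar, the isoform of muscle and brain, had ratios of 0.42, 0.47 and 0.38 in db/db pads, against 0.13, -0.18 and -0.12 in db/+ pads. Its groups did not overlap either, and its log2 fold change of 0.48 ± 0.09 had an adjusted p of 0.0538. Leaving out probes at or below 0.05, with 12595 genes tested, brought both past the threshold, at adjusted p = 0.0405 for Slc25a12 and 0.0336 for Slc25a13. Scaling arrays to equal spread took them far from it, to log2 fold changes of 0.42 for Slc25a12 (adjusted p = 0.568) and 1.03 for Slc25a13 (adjusted p = 0.703). Quantile normalization gave 0.43 (adjusted p = 0.46) for Slc25a12 and 1.09 (adjusted p = 0.476) for Slc25a13.

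Carriers of dicarboxylates and glutamate showed no call. Slc25a10, which exchanges malate or succinate for phosphate and is abundant in white fat, had ratios of 0.28, -0.25 and -0.57 in db/db pads, against 0.14, -0.19 and 0.099 in db/+ pads. The db/db pads spanned the whole db/+ range, the log2 fold change was -0.19 ± 0.25 (adjusted p = 0.667), and it turned to 0.27 with db/db replicate 1 alone and to 0.083 with the epididymis markers as a covariate. Slc25a11, the oxoglutarate/malate carrier of the same shuttle, had ratios of -0.19, -0.11 and -0.26 in db/db pads, against 0.056, -0.063 and 0.092 in db/+ pads. These groups did not overlap, at a log2 fold change of -0.21 ± 0.06 (adjusted p = 0.13). Slc25a18, a glutamate carrier, had the most negative log2 fold change of the family, -1.04 ± 0.76 (adjusted p = 0.486). Its ratios were -1.50, -0.39 and -1.58 in db/db pads, against 0.77, -1.58 and 0.46 in db/+ pads, so the db/+ pads alone covered the whole range of the db/db pads. It moved to -0.60 without db/+ replicate 1 and to -1.77 without db/+ replicate 2, and Slc25a35 was the more negative of these 2 genes without db/+ replicate 1 (-1.01). Its paralogue Slc25a22 gave -0.37 without overlap (adjusted p = 0.0539), and Slc25a21, the oxodicarboxylate carrier, gave 0.35 ± 0.54 with overlap.

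The remaining roles held no call. The uncoupling-protein-like carriers Slc25a14, Slc25a27 and Slc25a30 had log2 fold changes of 0.25, 0.34 and 0.24, and the ratios of the groups did not overlap for Slc25a14 and Slc25a30. The Cy5 intensities of Slc25a30 did overlap, at 0.22 to 0.23 in db/db and 0.20 to 0.23 in db/+ pads. Its pool channel ran between 0.17 and 0.23, and within rounding its log2 fold change could lie between 0.096 and 0.38. Slc25a37, mitoferrin 1, which imports iron for haem and iron-sulphur clusters and is best known from red cell precursors, had ratios of 0.58, 0.45 and 0.14 in db/db pads, against -0.17, -0.13 and 0 in db/+ pads. Every db/db ratio exceeded every db/+ ratio, but the probe was dim, at 0.137 in db/db and 0.0967 in db/+ pads, and the log2 fold change of 0.49 ± 0.13 did not pass (adjusted p = 0.105). None of the 3 erythroid markers measured passed. Slc25a39, needed for glutathione import into mitochondria, gave -0.28 without overlap of the groups, and its paralogue Slc25a40 gave -0.043 with overlap. The ornithine carriers Slc25a15 and Slc25a2 were dim. Slc25a28 and Slc25a44 were not analysed here, since no probe of the table carried those names.

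**Figure D3:**
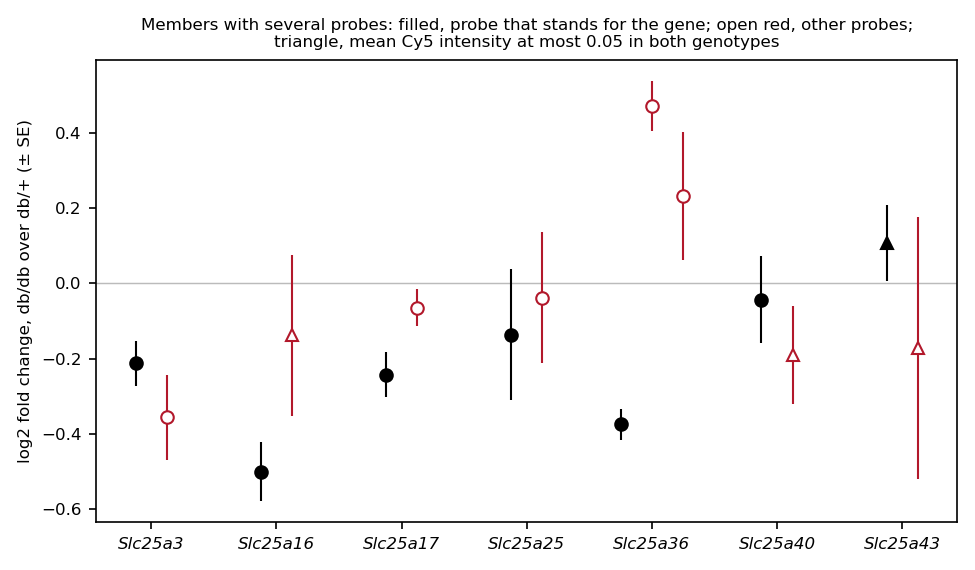
Log2 fold change, db/db over db/+ (y axis, ± SE from the fit of every probe), of each probe of the 7 carriers with several probes; black points are the probes that stand for the gene, open red points the others, and triangles mark probes at an intensity of at most 0.05 in both genotypes. Slc25a36 has its black point at -0.38 and its open points at 0.47 and 0.23, while the probes of Slc25a3, Slc25a16, Slc25a17, Slc25a25 and Slc25a40 all lie below 0.

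Promoters of 2 carriers that fell and of the 2 aspartate/glutamate carriers are shown, because their values lay on opposite sides of 0 and they have an entry in the RefSeq table (build GRCm38.p6). Each window is the 250 bases before the gene's start, written 5′ to 3′ on the gene's strand, with matches to 3 short motifs in capitals.
Slc25a4, chr8:46211063-46211312, minus strand: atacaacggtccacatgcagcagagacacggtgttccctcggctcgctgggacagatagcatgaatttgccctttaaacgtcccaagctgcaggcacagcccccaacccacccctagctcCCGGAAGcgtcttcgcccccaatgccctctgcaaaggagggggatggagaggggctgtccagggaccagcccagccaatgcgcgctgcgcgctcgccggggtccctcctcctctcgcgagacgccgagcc
Slc25a16, chr10:62920383-62920632, plus strand: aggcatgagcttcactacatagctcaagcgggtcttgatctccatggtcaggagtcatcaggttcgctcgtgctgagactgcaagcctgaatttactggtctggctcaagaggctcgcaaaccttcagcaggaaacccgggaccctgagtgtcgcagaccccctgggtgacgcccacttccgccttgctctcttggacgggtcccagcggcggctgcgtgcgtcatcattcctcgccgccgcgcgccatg
Slc25a12, chr2:71367756-71368005, minus strand: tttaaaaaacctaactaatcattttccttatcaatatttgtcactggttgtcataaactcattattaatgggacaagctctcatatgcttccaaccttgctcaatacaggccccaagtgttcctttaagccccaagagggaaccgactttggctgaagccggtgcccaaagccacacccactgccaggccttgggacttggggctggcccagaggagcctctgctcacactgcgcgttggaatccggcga
Slc25a13, chr6:6217174-6217423, minus strand: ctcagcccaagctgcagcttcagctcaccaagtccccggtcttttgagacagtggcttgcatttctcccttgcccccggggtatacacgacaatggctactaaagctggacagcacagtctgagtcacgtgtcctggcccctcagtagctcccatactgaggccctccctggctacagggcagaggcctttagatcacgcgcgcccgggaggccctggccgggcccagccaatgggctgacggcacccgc
The motifs searched on both strands were AAGGTCA, the half-site of estrogen-related receptors, TGCGCA, the core of the nuclear respiratory factor 1 site, which reads alike on both strands, and CCGGAAG, an ETS site of the kind bound by GABP; none of them holds another. Slc25a4 held 1 match, to CCGGAAG, and the windows of Slc25a16, Slc25a12 and Slc25a13 held 0. The table had 34 windows for 25 of the members, some genes having several starts. Of these windows 0 held AAGGTCA, 4 (11.8%) held TGCGCA and 3 (8.82%) held CCGGAAG, where 4.08%, 6.43% and 6.91% of all 32851 windows did. The base composition was 64.8% G and C for Slc25a4, 60.8% for Slc25a16, 49.6% for Slc25a12 and 62.8% for Slc25a13.

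Carrier proteins outside the set, left out by the rule or filed under other symbols, had 3 calls. Lower were 22.2% of them and higher 11.1%, beside 3.81% and 2.95% of all genes tested. Of the 9 listed and measured, Slc25a1 (citrate carrier) and Ucp3 fell and Ucp1 rose, with log2 fold changes of -1.11 ± 0.20 (adjusted p = 0.049), -2.31 ± 0.28 (adjusted p = 0.0231) and 1.19 ± 0.21 (adjusted p = 0.0456). Slc25a20, the carnitine/acylcarnitine carrier, gave -0.47 with overlapping groups, Ucp2 gave -0.088, and the outer-membrane relatives Mtch1 and Mtch2 gave 0.12 and -0.15, none of which passed. Slc25a51 and Slc25a53, whose probes bore older names, gave -0.068 and -0.11. Slc25a54, a further such gene outside that list, gave 0.

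Genes that work beside the carriers were compared in the same fit, in which 3.81% of all genes tested were lower and 2.95% higher. ATP synthase, which uses the ADP and phosphate that Slc25a4 and Slc25a3 deliver, was counted together with its inhibitor Atpif1. Of the 14 measured genes 5 (35.7%) were lower (Atp5a1, Atp5h, Atp5j, Atp5j2 and Atp5k) and 1 (7.14%) was higher (Atp5g1). Their median log2 fold change was -0.42. Atp5a1, the catalytic-core subunit alpha, stood at -0.75 ± 0.09 (adjusted p = 0.0247), and Atp5j, a stalk subunit, at -0.46 ± 0.05 (adjusted p = 0.017). For Atp5h, Atp5j2 and Atp5k the log2 fold changes were -0.40, -0.55 and -0.70, and for Atp5g1 0.47. Mpc1, a subunit of the pyruvate carrier, fell by 1.26 on the log2 scale (adjusted p = 0.0279), the only call among 5 genes of the pyruvate carrier and the outer-membrane channels. The malate-aspartate shuttle enzymes gave 0 calls in limma at an adjusted p of 0.05. At an unadjusted p under 0.05, 2 of the 4 were lower and 2 higher, where 13.3% and 9.95% of all genes tested were. The malate dehydrogenases Mdh1 and Mdh2 had log2 fold changes of -0.49 and -0.51, and the aspartate aminotransferases Got1 and Got2 of 0.57 and 0.41. None of their groups overlapped, where 14.7% of the genes measured on all arrays lay lower without overlap and 11.4% higher.

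Branched-chain amino acid breakdown had 3 of 6 genes lower, or 50%, beside 3.81% of all genes tested. Bcat2 and Bckdha, the aminotransferase and a dehydrogenase subunit, had log2 fold changes of -0.62 and -0.996. Bckdk, the kinase that restrains the dehydrogenase, had one of -0.37. The import machinery of the carriers, here outer-membrane Tomm genes as well as Timm genes, had 0 lower and 1 higher of 12 genes. That 1 was Tomm20, at 0.31 ± 0.05, and no Timm gene passed. It makes 8.33% higher, beside 2.95% of all genes tested. Of 7 regulators of mitochondrial biogenesis Ppargc1a, the coactivator PGC-1 alpha, fell by 1.01 on the log2 scale (adjusted p = 0.0317), while Esrra, Nrf1, Gabpa and Tfam did not pass. None of the 5 partners of mitochondrial iron import passed. Beside the carriers' median of -0.19, that of the import machinery was -0.011, of the shuttle enzymes -0.041 and of the iron partners -0.091. It was -0.11 for the other carriers, -0.195 for the biogenesis regulators and -0.27 for the pyruvate carrier and channels. ATP synthase had a median of -0.42 and branched-chain breakdown of -0.60.

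**Figure D4:**
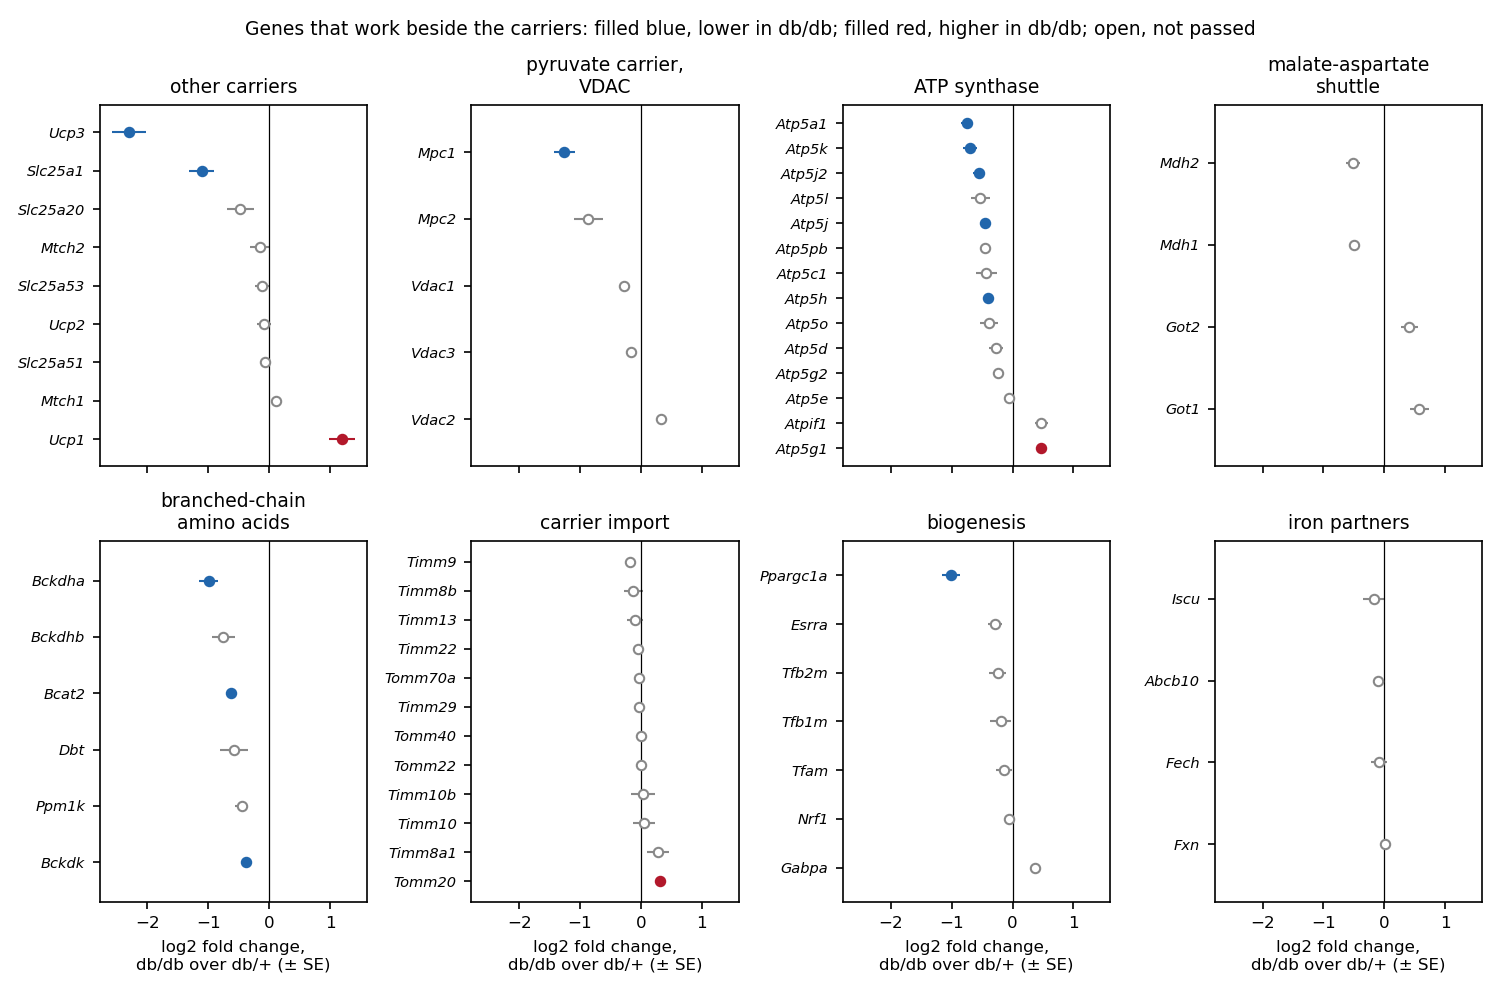
Log2 fold change, db/db over db/+ (x axis, ± SE from limma), of 61 genes that work beside the carriers, 1 panel a list; filled blue points were lower and filled red points higher at an adjusted p of 0.05, open points did not pass. ATP synthase has 5 blue points and 1 red, while 11 of 12 points of the import machinery are open.

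The calls rested on few arrays. With 1 array left out at a time, Slc25a4, Slc25a23 and Slc25a36 passed only without db/db replicate 1. Slc25a16 passed only without db/db replicate 1 or 2, and Slc25a35 failed only without db/+ replicate 3. Some alternative settings, such as the deposited log10 ratios, refit nearly the same values. Slc25a35 passed under 15 of 19 alternative settings, and Slc25a4, Slc25a16, Slc25a23 and Slc25a36 under 8 each. Of the 34 members 7 were called lower without db/db replicate 1, 2 without db/db replicate 2, 1 without db/db replicate 3, 1 without db/+ replicate 1, 1 without db/+ replicate 2 and 0 without db/+ replicate 3. Members called higher numbered 1 without db/db replicate 1, 1 without db/+ replicate 1 and 0 in the others. Among all 17023 genes tested, 3426, 250, 584, 167, 117 and 54 were called in either direction, in the same order of settings. With the epididymis markers as a covariate Slc25a35 and Slc25a36 were called. Slc25a4, Slc25a16 and Slc25a23 were not (limma adjusted p = 0.0562, 0.0826 and 0.0639). Their log2 fold changes were -0.44, -0.52 and -0.57 with the covariate, beside -0.44, -0.50 and -0.65 without it. With 6 arrays, and the markers high in 2 of the 3 db/db pads, that fit cannot tell what part epididymal tissue has in these values. Against the 3 db/+ arrays, db/db replicate 1 alone, the pad with low epididymis markers, gave -0.48 for Slc25a4, -0.56 for Slc25a16, -0.53 for Slc25a23 and -0.91 for Slc25a35; a group of 1 array has no spread of its own, so these are values only. Slc25a12 passed under 4 of the 19 alternatives and Slc25a13 under 5, always as higher.

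**Figure D5:**
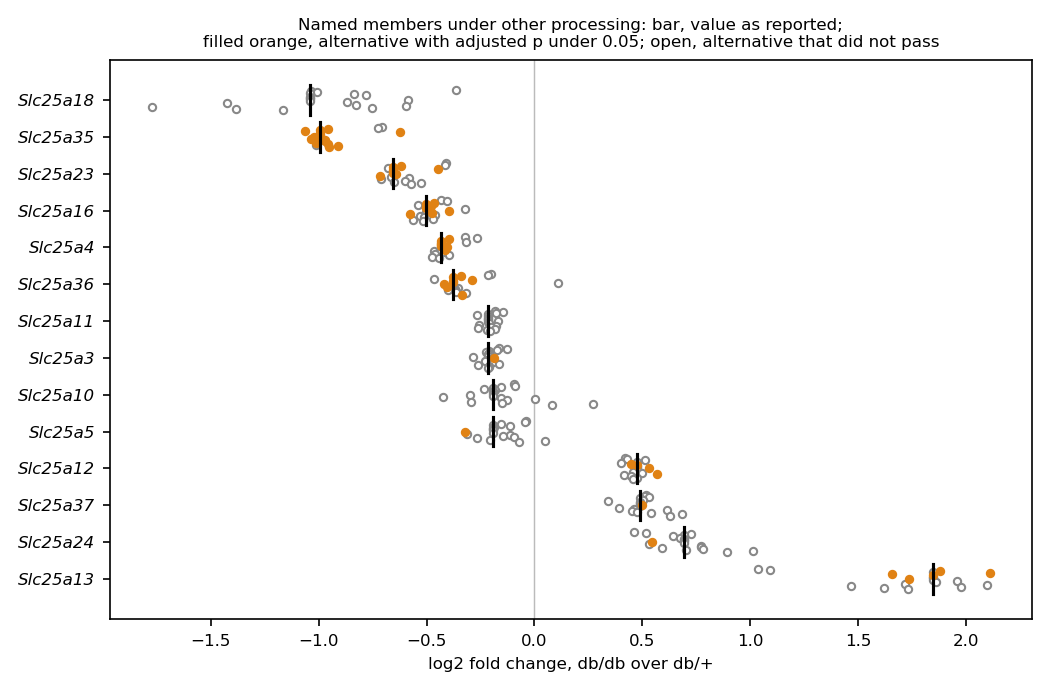
Log2 fold change, db/db over db/+ (x axis), of 14 carriers as reported (black bar) and under each of 19 alternative settings (points, orange where the adjusted p was under 0.05). Slc25a35 is orange in 15 settings, while Slc25a10 and Slc25a5 have points on both sides of 0 and Slc25a36 has 1 point above 0.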

How the data were processed

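Total RNA of eWAT from 3 db/db and 3 db/+ mice was amplified in 2 rounds, per the labels' protocols, and read with Agilent Feature Extraction 8.5.1.1, per the submitters' processing notes. The authors deposited an intensity of each channel for 23556 probes on an arbitrary scale, mostly in steps of 0.01, and log10 ratios of 23555 probes. For background correction, normalization, slide and scan date, the labels and headers give nothing. No dyes were swapped.

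Log2 ratios of Cy5 over Cy3 were computed from the deposited intensities without further normalization. The db/db columns of that table carry mouse numbers, so numbered replicates are given from the deposited log10 ratios, turned to log2, which differed from the table's by at most 0.00414 on the db/+ arrays. Gene names were brought up to date with RefSeq (GRCm38.p6), and the brightest fully measured probe stood for a gene. Genotypes were compared by lmFit and eBayes of limma 3.58.1 (R 4.3.3) without a block, p-values being adjusted over 17024 genes by Benjamini-Hochberg. The fit was tested on simulated data. Alternatives changed scaling, normalization, channel, offset, filter, probe rule, weights, block, covariate and arrays used. The members, role groups, partner lists and markers were chosen with earlier results of these data known. Values of 1 member and of some other genes are not reported here. Array values are given for members past the threshold, the 3 largest differences each way above an intensity of 0.05, and preset members; partner genes are named where they passed, and those named otherwise were chosen after their values were seen. The arrays are labelled as biological replicates, and 3 per genotype limits the precision. Python 3.11.15, numpy 2.4.6, pandas 2.3.3 and matplotlib 3.10.9 read tables and drew figures.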

Additional observations from a re-analysis of the deposited data

How the results depend on the processing

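As reported, 5 members were lower, 0 higher, their median log2 fold change was -0.19 and 1150 genes were called. The deposited log10 ratios in place of the table kept all 5 calls. Scaling to equal spread gave 0 lower, a median of -0.069 and 2 genes called; quantile normalization gave 0 lower, a median of -0.068 and 0 genes called. Loess gave 1 higher and a median of -0.15. Cy5 alone gave 1 lower, 1 higher and 570 genes. An offset of 0.05 gave 2 higher and a median of -0.13, and leaving out dim probes 2 higher. Testing every probe gave 1 higher (Slc25a36, called in both directions on different probes). Averaging a gene's probes gave 3 lower, without Slc25a16 (-0.32), a median of -0.14 and a reversed Slc25a36 at 0.11. Array weights, which put a weight of 5.45 on 1 db/db array and 0.406 and 0.164 on the others, gave 12 lower, 7 higher and 6672 genes. Leaving out each array in turn gave 0 to 7 lower, 0 to 1 higher, medians of -0.25 to -0.077 and 54 to 3426 genes; Slc25a10 ran between -0.42 and 0.0040, reversed without db/db replicate 3. Replicate 1 of db/db alone, assumed to vary like the db/+ arrays since its group then holds 1 array, gave 1 lower, a median of 0 and 1792 genes; Slc25a10 (0.27) and Slc25a5 (0.051) changed sign as values. The epididymis covariate gave 2 lower, a median of -0.12 and a reversed Slc25a10 (0.083). The cause of these shifts was not tested, beyond the fewer genes or arrays that some settings hold.

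With the replicate number as a block, 0 members and 0 genes were called in limma. Nothing in the labels says that the numbers pair the mice. Deviations of same-numbered arrays correlated at -0.48, -0.41 and -0.024, and 0 of 3 db/db arrays correlated best with their own number. With 3 arrays per genotype these correlations cannot show whether the mice were paired. Intensities at or below 0.05 leave 5 members without a measurable difference, and rounding limits, among others, Slc25a23, Slc25a30, Slc25a35, Slc25a36 and Slc25a37.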
